A study of Mus musculus with 30 samples.

Results

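Expression of the pancreatic carboxypeptidase genes Cpa1 and Cpb1 was followed in the developing mouse pancreas. Every probe set whose platform annotation gave the single symbol Cpa1 or Cpb1 was taken, which gave 2 of 15964 named genes and 3 of 36701 probe sets: 1 for Cpa1 (165431_at, on chip C) and 2 for Cpb1 (162535_at on chip B and 169359_at on chip C). The RNA came from dorsal pancreatic tissue of NMRI mouse embryos, with no treatment or genetic change named, on 5 successive days, from e12.5 to e16.5 (e for embryonic day). Tissue was pooled by litter, the RNA of each pool was labelled in 2 reactions, and every labelling went onto 3 Affymetrix arrays (chips A, B and C of the second MG-U74 version), 30 arrays in all. Both arrays of a stage and chip therefore share a pool. Their spread is technical, and a stage cannot be told apart from its pool.

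Carboxypeptidases A1 and B1 are zinc enzymes that acinar cells store in zymogen granules as inactive proenzymes, to be cut and activated by trypsin in the gut. Carboxypeptidase A1 removes aromatic and branched residues from the end of a peptide chain, and carboxypeptidase B1 removes lysine and arginine, so it works on the ends that trypsin leaves. In the branching pancreatic bud, Cpa1 is also known as a marker of the tip cells, which are multipotent at early stages and later give rise to acinar cells. Cpb1 is known as a product of differentiating acinar cells.

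On GRCm38.p6, Cpa1 lies on chromosome 6 at 30639218 to 30645361 (plus strand) and Cpb1 on chromosome 3 at 20249479 to 20275733 (minus strand). The 250 bases before the annotated start of each gene, from RefSeq, are shown because both genes rose, with most of the change in different days. They are chr6:30638968-30639217 (plus strand) and chr3:20275734-20275983 (minus strand), each written 5′ to 3′ along its gene. Capitals mark the E-box CANNTG and the RBPJ core TTCCCA, which together make up the site of the acinar complex PTF1.
Cpa1: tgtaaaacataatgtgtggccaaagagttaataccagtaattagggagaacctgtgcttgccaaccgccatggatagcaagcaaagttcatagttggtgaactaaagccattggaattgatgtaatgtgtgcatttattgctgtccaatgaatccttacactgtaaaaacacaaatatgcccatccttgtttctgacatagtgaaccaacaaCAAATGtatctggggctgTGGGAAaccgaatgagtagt
Cpb1: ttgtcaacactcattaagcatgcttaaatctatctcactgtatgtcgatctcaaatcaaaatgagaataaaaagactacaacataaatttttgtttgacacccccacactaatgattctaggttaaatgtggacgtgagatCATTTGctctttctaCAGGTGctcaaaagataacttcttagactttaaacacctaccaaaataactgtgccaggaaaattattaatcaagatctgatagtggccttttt
Both strands of the 300-base windows that end 50 bases inside the genes were searched for the E-box CANNTG, the RBPJ core TTCCCA, the NR5A2 sequence AAGGTCA and the TATA box TATAAA. The Cpa1 window held the E-box CAAATG at -38 to -33 and a TTCCCA on the opposite strand at -20 to -15, 12 bases apart, counted from the annotated start. It held 2 more E-boxes, both CAGCTG, at 3 to 8 and 23 to 28 inside the gene. The Cpb1 window held the E-boxes CATTTG at -109 to -104 and CAGGTG at -94 to -89, no TTCCCA, and a TATAAA at 36 to 41 inside the annotated gene. Neither window held AAGGTCA. Of 32841 promoters of this length, 72.3% held an E-box, 25.6% held TTCCCA, 6.97% held both within 30 bases, 13.6% held TATAAA and 4.72% held AAGGTCA. These matches describe the letters only.

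Cpa1 was among the brightest signals of its chip from the first stage on. Its levels on the log2 scale were 10.73 and 10.77 at e12.5, 11.91 and 12.02 at e13.5, 12.66 and 12.63 at e14.5, 13.28 and 13.30 at e15.5, and 13.33 and 13.30 at e16.5 (labelling reactions 1 and 2). The levels of e12.5, e13.5, e14.5 and e15.5 did not overlap, whereas those of e15.5 and e16.5 did. These are 2 reactions of 1 pool per stage, and the share of all probe sets that separate in this way was not counted. Among the 11868 probe sets of chip C, Cpa1 ranked 9 from the top at e12.5 and 2 at e13.5, and it was the brightest from e14.5 on. At e16.5 it stood 1.18 log2 units above the next probe set of the chip. Where it is brightest, signal can saturate and quantile scaling can hold it down, so its later changes can be understated.

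Cpb1 behaved differently on its chip B probe set 162535_at. Its levels were 4.43 and 4.58 at e12.5, 4.999 and 5.12 at e13.5, 5.75 and 5.78 at e14.5, 9.12 and 9.05 at e15.5, and 11.80 and 11.77 at e16.5. No level of a stage overlapped with that of another stage, and here too the share of all probe sets that separate in this way was not counted. The chip's median was 5.26 at e12.5, 5.29 at e13.5 and 5.30 at e14.5, so Cpb1 lay below the median at the first 2 stages and above it from e14.5. It ranked 7953 from the top of 12411 probe sets at e12.5, 5063 at e14.5, 76 at e15.5 and 3 at e16.5. The files hold no detection calls. The levels of e12.5, e13.5 and e14.5 are thus not shown to be above background. Changes counted from them, the step from e14.5 to e15.5 included, can be understated.

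The other Cpb1 probe set, 169359_at, stayed between 2.44 and 2.63 on all 10 arrays of chip C. Its stage means lay between the 2.45th and the 7.9th percentile of the chip, and the levels of most stages overlapped. The lowest probe set of the chip lay at 2.03 to 2.14 over the stages. A probe set that did not rise beside one that did was common. Of 167 genes with several probe sets whose brightest rose by at least 2-fold, 96 (57.5%) had another that did not rise. How often the gap was as large as in Cpb1 was not counted. The results on Cpb1 below rest on 162535_at unless the other is named. Levels are not compared between the probe sets, which differ in probes and chip.

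**Figure D1:**
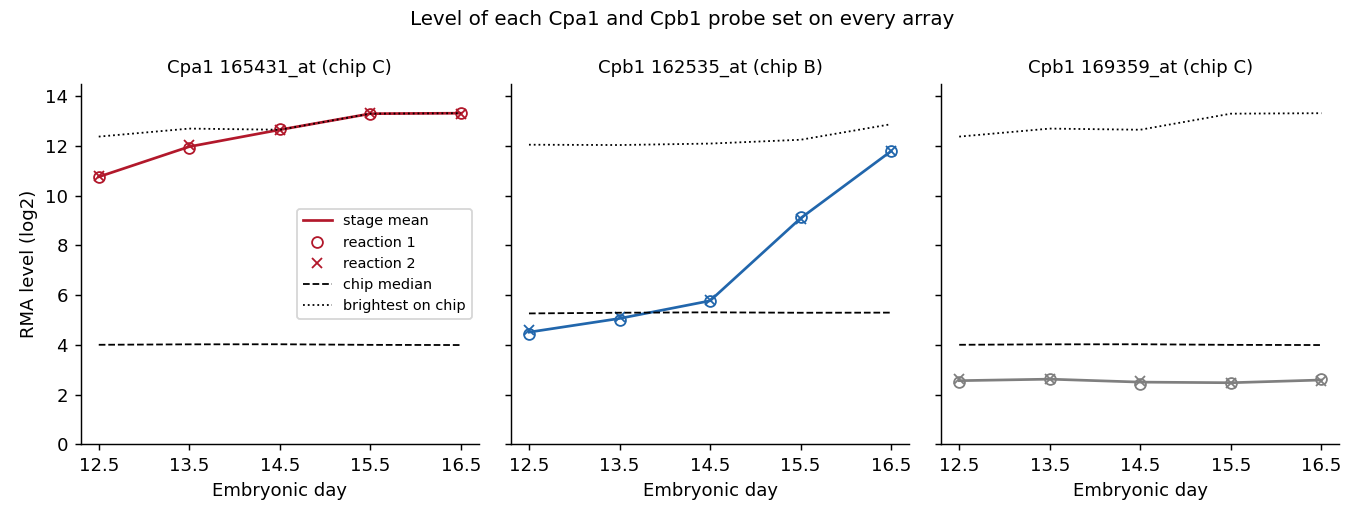
Level of each probe set (log2) by embryonic day, with a circle and a cross for the labelling reactions of a stage, a line through the stage means, a dashed line at the chip's median and a dotted line at its brightest probe set. Cpa1 meets the dotted line from e14.5, Cpb1 162535_at crosses the median between e13.5 and e14.5, and Cpb1 169359_at stays between 2.44 and 2.63.

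Whether the genes changed with age was tested by the slope of a line over the 5 pool means. A slope that passes does not show that the rise was even over the days. Cpa1 had a fitted change over 4 days of 2.58 ± 0.31 (log2, SE, n = 5 pools; limma, Benjamini-Hochberg adjusted p = 0.0016), or 5.97-fold. Cpb1 had one of 7.44 ± 0.87 (limma adjusted p = 0.00136). Each stage mean of both genes was above that of the day before, in 4 of 4 steps. The exact two-sided permutation p over the 120 orders of the pools was 0.0167 for each, the smallest that 5 pools allow. For Cpa1 both this p and the count of steps rest on a last step of 0.02, less than the spread between reactions. By reaction 2 alone, Cpa1 was slightly lower at e16.5 (13.296) than at e15.5 (13.304). Cpb1 169359_at had -0.04 ± 0.09 (limma adjusted p = 0.789; exact permutation p = 0.667). Thus 2 of the 3 probe sets rose, where 10.6% of all 36701 probe sets rose and 13.1% fell, with a median change of 0.04 over all of them. Ordered by measured size of rise among all probe sets, Cpb1 was number 7 and Cpa1 number 95, places that background and saturation can shift. Without the e12.5 pool the changes were 1.87 for Cpa1 and 9.40 for Cpb1, and without the e16.5 pool 3.32 and 5.78, and each still passed.

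The daily steps showed when each gene moved. These differences come from a limma fit of all 10 arrays of a chip, whose error is the spread between labelling reactions. They compare pools, not litters. Between e12.5 and e13.5 Cpa1 rose by 1.21 ± 0.07 (2.32-fold, limma adjusted p = 5.74e-07), a step that reached the 2-fold minimum, as 0.079% of probe sets did upward and 0.049% downward. In the same step Cpb1 differed by 0.55 ± 0.07 (adjusted p = 0.000218), below that minimum. From e13.5 to e14.5 both genes stayed under 2-fold, with 0.68 ± 0.07 for Cpa1 (adjusted p = 0.000107) and 0.71 ± 0.07 for Cpb1 (adjusted p = 3.61e-05), while 0.106% of probe sets were called upward and 0.0245% downward.

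Between e14.5 and e15.5 Cpb1 rose by 3.32 ± 0.07 (9.99-fold, limma adjusted p = 5.93e-13), the 4th largest rise of all probe sets in that step, where 0.294% were called upward and 0.0708% downward. Cpa1 differed by 0.65 ± 0.07 in this step (adjusted p = 4.96e-05), which is under 2-fold. In the last step, e16.5 against e15.5, Cpb1 rose again, by 2.70 ± 0.07 (6.49-fold, adjusted p = 6.45e-12; 0.215% of probe sets called upward and 0.114% downward). Cpa1 differed by 0.02 ± 0.07 there (adjusted p = 0.875), less than the spread between reactions. Over the whole span, e16.5 against e12.5, the differences were 2.56 ± 0.07 for Cpa1 (5.89-fold, adjusted p = 1.3e-11) and 7.28 ± 0.07 for Cpb1 (adjusted p = 4.78e-18), where 1.44% of probe sets were called upward and 3.03% downward. Cpb1 169359_at was called in none of these 5 comparisons (limma adjusted p = 0.332 to 0.89).

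**Figure D2:**
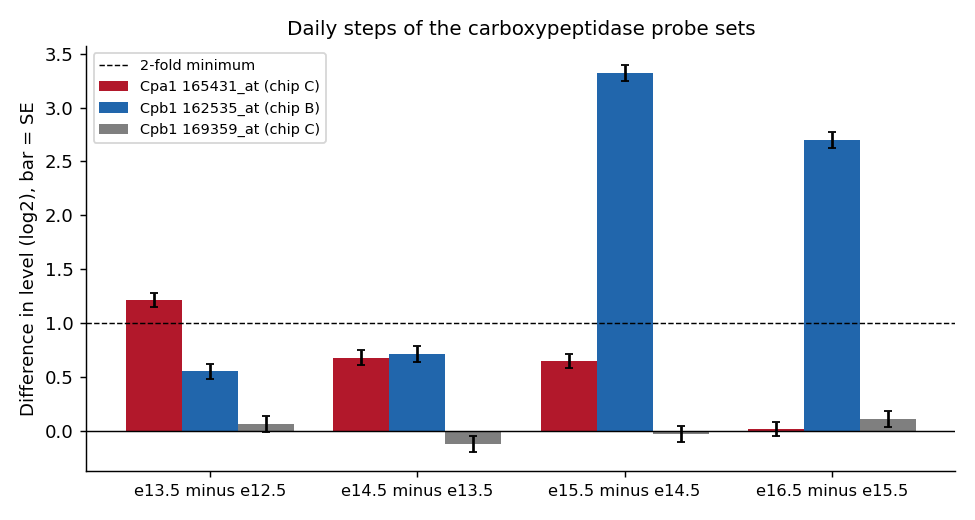
Difference in level between consecutive stages (log2, later minus earlier) for each probe set, with the SE of the limma fit as error bars and a dashed line at 2-fold. Cpa1 has its largest step first (1.21) and almost none last (0.02), and Cpb1 162535_at has its largest steps in the last 2 days (3.32 and 2.70).

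Set side by side, Cpa1 made most of its log2 change in the first 2 days and Cpb1 in the last 2. Cpa1 gained 1.93 and 1.86 (reactions 1 and 2) up to e14.5, and 0.66 and 0.67 after it, so that 74.4% and 73.6% of its change came early. Cpb1 gained 1.32 and 1.21 up to e14.5, and 6.05 and 5.99 after it, with 17.9% and 16.7% early. Saturation of Cpa1 at the late stages would raise its early share, and background under Cpb1 at the early stages would lower its own, so both limits can widen this contrast. On the linear scale the gain of Cpa1 was closer to even, with 4685 intensity units up to e14.5 and 3754 after it, and that of Cpb1 was 31.8 and 3479. With 1 pool per stage this difference in timing has no replicate check, and it was not tested. What was tested is the size of the rises: the fitted change of Cpa1 minus that of Cpb1 was -4.86 ± 1.87 (log2 over 4 days, SE, n = 5 pools). Its exact permutation p was 0.0833, also 0.0833 after adjustment over the 3 pairs of probe sets, so this difference in size did not pass. It was -2.46 without the e16.5 pool and -7.53 without the e12.5 pool. The SEs of such differences come from the scatter of the 5 pool means alone. The limma SEs above also draw on the other probe sets of a chip, so the SEs are not comparable. Against Cpb1 169359_at, the fitted change of Cpa1 was higher by 2.61 ± 0.52 and that of Cpb1 162535_at by 7.47 ± 1.42 (exact permutation p = 0.0333 and 0.0167, both 0.05 after adjustment, which is not below the threshold).

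The timing was then placed among genes of acinar products and regulators and the carboxypeptidase family. For each gene that rose in the stage trend, the day was read at which 50% of its log2 difference between e16.5 and e12.5 was reached, by straight lines between stage means. Cpa1 reached it at day 13.60 (13.66 and 13.52 by reaction) and Cpb1 at day 15.22 (15.20 and 15.23), 1.62 days later. Cpa1 was the 3rd of 28 genes in this order and Cpb1 the 21st. Before Cpa1 stood Nr5a2 (13.41), a nuclear receptor of acinar cells, and Ctrb1 (13.55), which encodes chymotrypsinogen B. Cpa1 and Ctrb1 did not differ beyond the spread of their reactions. After Cpa1 came the lipase-related gene Pnliprp1 (13.90) and, named here after its value was seen, the colipase gene Clps (14.12).

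Before Cpb1 stood the elastase genes Cela3b (15.08) and Cela2a (15.18), with Reg1 (15.09, named after its value was seen) between them. After Cpb1 stood the ribonuclease gene Rnase1 (15.31) and the amylase gene Amy2a5 (15.42, named after its value was seen). The spread of reactions is technical, so the order of genes this close to each other is not established. The last in the order were Klk1 (15.83) and the zymogen granule membrane gene Gp2 (15.87), also named after their values were seen. Neither passed in the stage trend without the e13.5 pool (adjusted p = 0.0927 and 0.0795) or the e16.5 pool (adjusted p = 0.143 and 0.0983). In all, 9 of the 28 genes reached 50% before e14.5, 14 between e14.5 and e15.5, and 5 later. Only genes that passed the straight-line trend are in this order, and a rise confined to the last day can fail it. Pnliprp2 (15.91), Zg16 (15.94), Ctrc (15.95) and Cuzd1 (15.96) did not pass and would stand after Gp2. Gata4 (14.08) did not pass either. The counts and places thus depend on this filter. A gene that starts below the chip's median or ends at its top can have its day moved by background or saturation. How much of these days comes from either was not tested. The reactions of Cpa4 differed by 2.4 days, the widest gap of the 28, so its place carries no order.

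**Figure D3:**
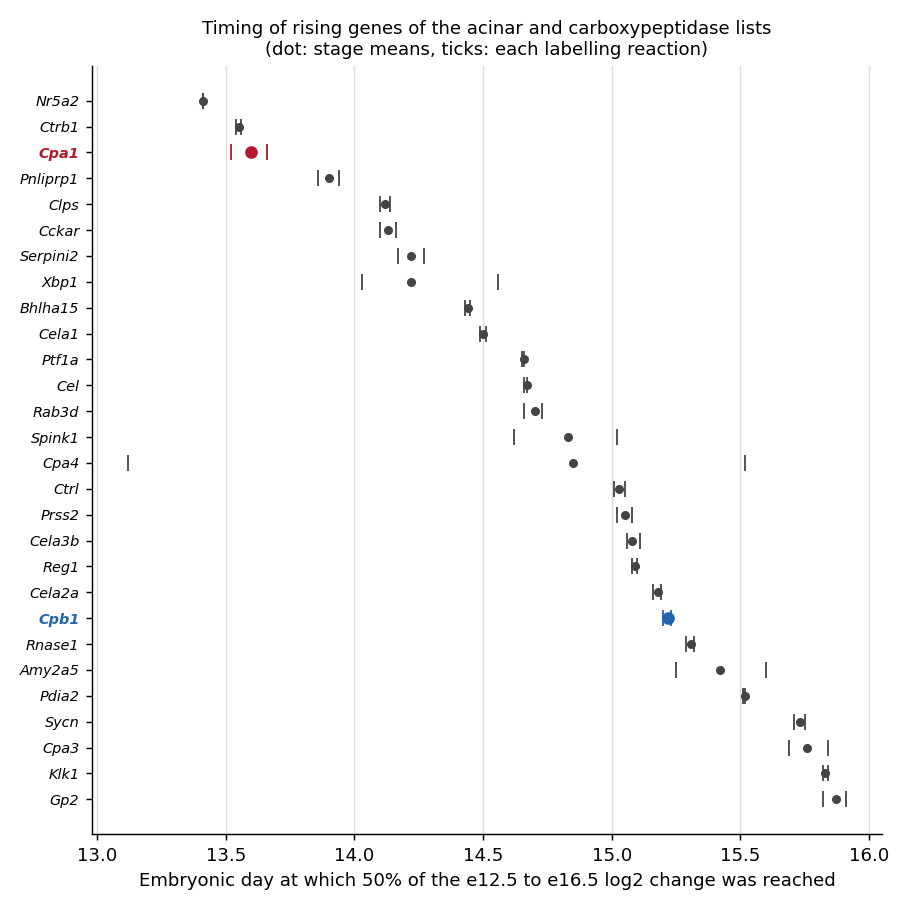
Embryonic day at which 50% of the log2 difference between e16.5 and e12.5 was reached, for the 28 genes of the lists that rose, earliest at the top. Dots are from stage means and ticks from each labelling reaction. Cpa1 (day 13.60) lies near the top and Cpb1 (day 15.22) in the lower part.

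Genes with the most similar course were found by the root mean square distance between profiles over the 5 stages, each profile being the stage means minus their mean, among 29128 named probe sets. This is a description over 5 pools, with no test. The closest to Cpa1 was Serpina6, which encodes corticosteroid-binding globulin, with a distance of 0.18 log2 units. All 3 probe sets of Serpina6 were among the 5 closest, the others at 0.24 and 0.24. The remaining places went to Fxyd3 (0.19), a regulator of the sodium pump, and Mt2 (0.22), a metallothionein. The brightest probe set of Serpina6 had stage means of 10.20, 11.47, 12.51, 12.66 and 12.71 from e12.5 to e16.5, a rise of 2.49 ± 0.45 in the stage trend (limma adjusted p = 0.0116). Fxyd3 rose by 2.71 ± 0.27 and Mt2 by 2.85 ± 0.19.

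The closest to Cpb1 were Cela3b (0.34), Rnase1 (0.48), the pancreatic disulfide isomerase gene Pdia2 (0.61), Cela2a (0.83) and the zymogen granule gene Sycn (0.89). All 5 encode products of acinar cells. Cela3b had stage means of 5.12, 5.63, 6.75, 10.60 and 12.87 from e12.5 to e16.5, on the same chip B as Cpb1. Rnase1 had 2.96, 3.09, 3.09, 7.57 and 10.43. In both, as in Cpb1, the steps after e14.5 were larger than those before it. Without the e16.5 pool Rnase1 (5.53, adjusted p = 0.114), Cela2a (4.18, adjusted p = 0.0575) and Sycn (2.52, adjusted p = 0.0611) no longer passed in the stage trend, and leaving out e13.5 also ended the call of Sycn (5.27, adjusted p = 0.0579). The distance between Cpa1 and Cpb1 themselves was 2.07. The closest to Cpb1 169359_at were Csgalnact1, Prm2, Adam32, Mtor and Gm36266, at 0.007 to 0.009, none of which passed in the stage trend.

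**Figure D4:**
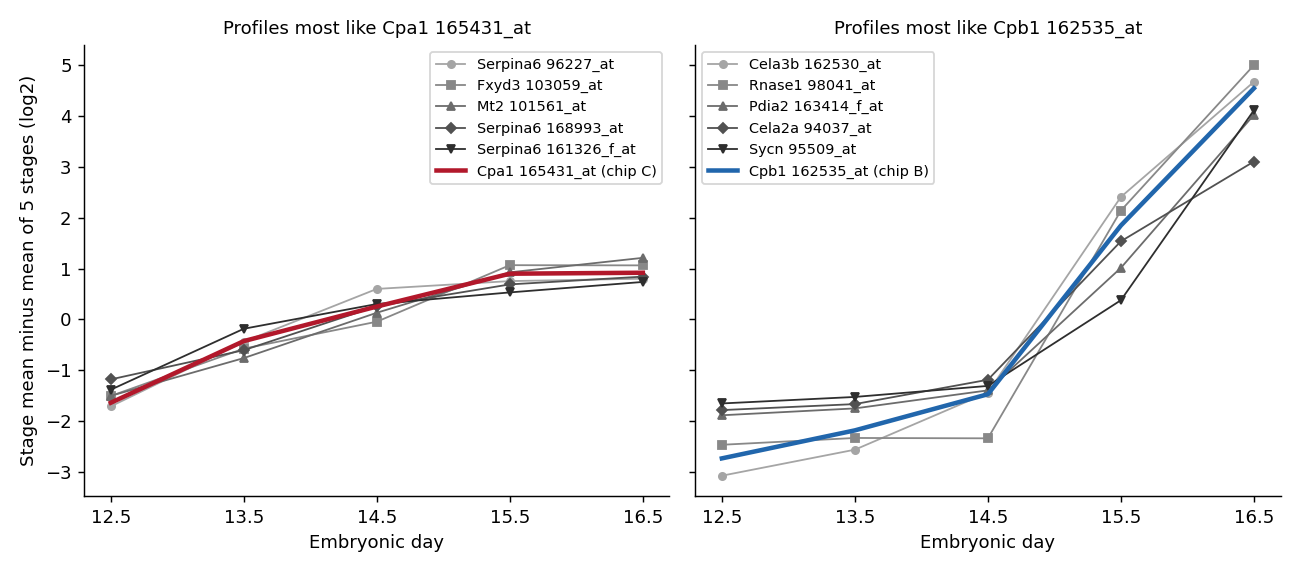
Stage mean minus the mean of the 5 stages (log2) by embryonic day, for Cpa1 with its 5 closest probe sets (left) and Cpb1 162535_at with its own (right). The Cpa1 group climbs from the first day and flattens, and the Cpb1 group is low up to e14.5 and climbs after it.

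The rest of the carboxypeptidase family moved less. Of 5 genes of the A and B subfamily analysed here, 4 rose and none fell, with a median change of 1.05 (11.9% of all 15964 genes rose and 17% fell, with a median of 0.02). Besides Cpa1 and Cpb1, these were Cpa3, the mast cell carboxypeptidase, and Cpa4. Cpa3 had stage means of 5.80, 5.77, 6.01, 6.16 and 6.91 from e12.5 to e16.5 and rose by 1.05 ± 0.23 (limma adjusted p = 0.0195), and its second probe set rose by 0.80 ± 0.19. Leaving out e13.5 (0.99, adjusted p = 0.0574) or e16.5 (0.53, adjusted p = 0.07) ended this call. Cpa4 rose by 0.30 ± 0.09 (adjusted p = 0.0414) on 1 of its 2 probe sets, and passed only without the e14.5 pool among the 5 fits that leave out a pool. Cpa6 (0.10 ± 0.09) did not pass.

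Mast cell markers were followed as a list that includes Cpa3 itself. Of 9 measured, 4 rose, Cpa3 among them, and none fell (against 11.9% and 17% of all 15964 genes). Mean levels over the list were 5.13, 5.16, 5.26, 5.35 and 5.67 from e12.5 to e16.5. The histidine decarboxylase gene Hdc rose by 1.21 ± 0.29 and the tryptase gene Tpsb2 by 0.75 ± 0.16, and none of the 9 passed when e16.5 or e13.5 was left out. Mcpt4 and Fcer1a lay below the 10th percentile of their chip at e12.5 and e16.5. The part of mast cells in the Cpa3 values was not tested. Among 9 measured members of the other M14 carboxypeptidases, 2 rose and 1 fell (against 11.9% and 17% of all 15964 genes), with a median change of 0.19. These were Cpn1, a subunit of the plasma carboxypeptidase N (1.37 ± 0.26), the tubulin deglutamylase gene Agtpbp1 (0.46 ± 0.08) and Cpxm1, which fell by 0.61 ± 0.12 on the log2 scale. Leaving out e12.5 ended all 3 calls (adjusted p = 0.0777, 0.0515 and 0.0728), and leaving out e16.5 that of Agtpbp1 (adjusted p = 0.0513). Cpe, the carboxypeptidase of prohormone processing in endocrine cells, had a change of 0.68 ± 0.29 (adjusted p = 0.135) on its brightest probe set.

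**Figure D5:**
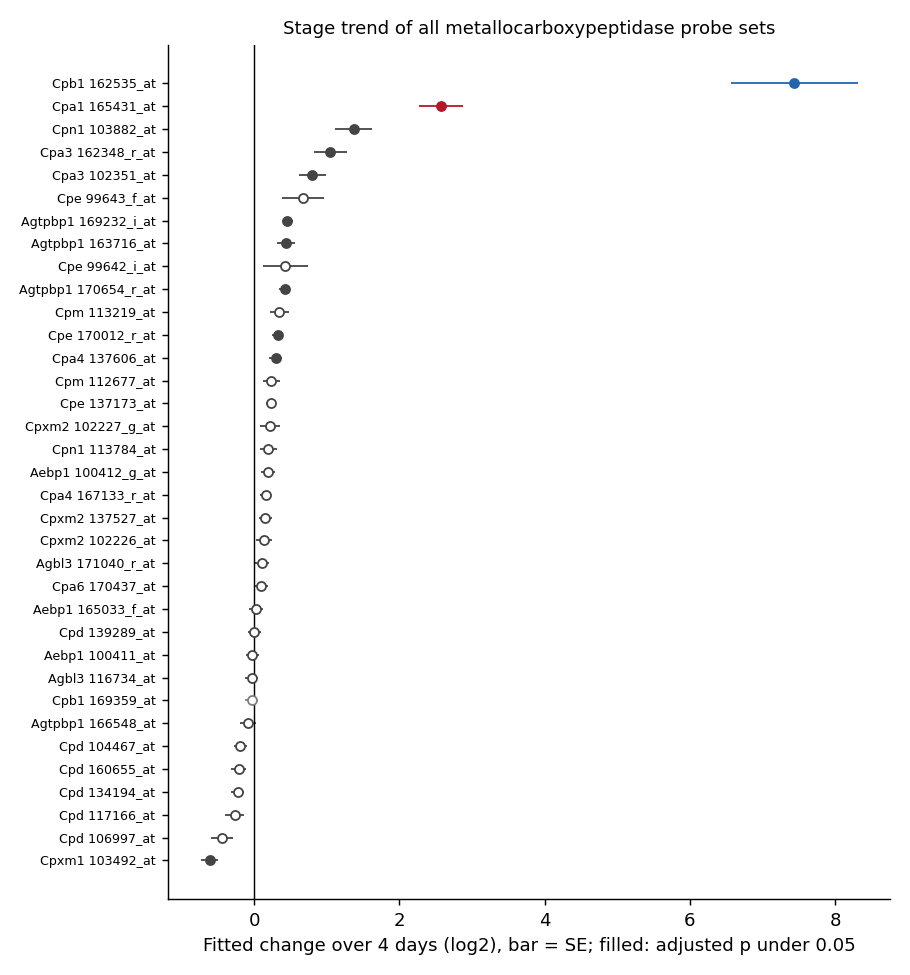
Fitted change over 4 days (log2, with SE) of all 35 probe sets of the listed metallocarboxypeptidases, filled where the limma adjusted p was under 0.05. Cpb1 162535_at (7.44) and Cpa1 (2.58) stand to the right of the other probe sets, which lie between -0.61 and 1.37, and Cpb1 169359_at lies at -0.04.

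Proteins that act on procarboxypeptidases or on their activator were taken as a list. Of 8 measured genes, 5 rose and none fell (against 11.9% and 17% of all 15964 genes), with a median change of 3.43. The trypsinogen gene Prss2, whose product activates both carboxypeptidases after it has itself been activated, rose by 6.47 ± 0.57 (limma adjusted p = 0.00107), with stage means of 5.02, 6.94, 8.07, 8.96 and 12.10 from e12.5 to e16.5. Its probe set is of a design shared by similar sequences and can hold signal of other trypsinogens. The pancreatic serpin gene Serpini2 rose by 7.09 ± 0.35, Ctrb1 by 5.44 ± 0.81 and the chymotrypsin-like gene Ctrl by 4.51 ± 0.49. Among members named after their values were seen, the trypsin inhibitor gene Spink1 rose by 0.89 ± 0.13. The carboxypeptidase inhibitor gene Lxn (latexin) had 0.40 ± 0.27 (adjusted p = 0.318). Tmprss15, which encodes the enteropeptidase of the gut that activates trypsinogen, had levels of 2.91 to 3.02 over the stages and -0.07 ± 0.09 (adjusted p = 0.6). Of 11 measured other digestive enzymes 9 rose and none fell (median 5.19), with Cela3b at 8.19 ± 0.87, and 6 rose without the e16.5 pool.

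Of 8 granule and export genes 6 rose and none fell (median 3.74), among them Cckar (3.99 ± 0.25), the receptor for cholecystokinin on acinar cells, and 4 rose when either e16.5 or e13.5 was left out. Of 8 acinar transcription factor genes, 4 rose and 1 fell (median 0.67). Over all 15964 genes, 11.9% rose and 17% fell. Bhlha15 (Mist1) rose by 3.43 ± 0.23, Ptf1a, the acinar subunit of PTF1, by 2.18 ± 0.19 and Xbp1 by 1.40 ± 0.11, whereas Tcf12 fell by 1.37 ± 0.15 on the log2 scale. Ptf1a reached 50% of its difference at day 14.66, between Cpa1 and Cpb1. Rbpjl, which encodes the RBPJ-like subunit of PTF1 in acinar cells, had 0.25 ± 0.14 (adjusted p = 0.223) and lay at the 20.4th percentile of its chip at e16.5.

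Because Cpa1 marks tip cells, genes reported for tip and trunk epithelium were set beside it. Of 8 tip genes 2 rose (Ptf1a and Nr5a2, at 0.82 ± 0.17) and 1 fell (the growth factor receptor gene Fgfr2, at -1.49 ± 0.26), with a median change of 0.12. The call of Nr5a2 was lost when e12.5 was left out (0.50, adjusted p = 0.106), and that of Fgfr2 when e16.5 was (-1.11, adjusted p = 0.085). Of 6 measured trunk genes none rose and 1 fell, Sox9 (-0.74 ± 0.16), with a median of -0.20, and 3 fell when e12.5 was left out and none when e16.5 was. Sox9 then had -0.39 (adjusted p = 0.176). Over all 15964 genes 11.9% rose and 17% fell, so tip and trunk counts this small do not set either list apart.

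Markers of several cell types changed in the tissue over the same days, where 11.9% of all 15964 genes rose and 17% fell. A list with 1 call up or down is not set apart from these shares. All 7 acinar markers rose, with mean levels over the list of 6.59, 7.94, 9.17, 10.44 and 11.58 from e12.5 to e16.5. All 7 were already counted in the enzyme, zymogen and transcription factor lists above, so this is not a separate result. Acinar genes of the lists above that did not pass, such as Ctrc, Pnliprp2 and Zg16, are not among these markers. Of 6 markers of duct and epithelium 5 rose (8.53 at e16.5 and 7.29 at e12.5 in mean level). Of 7 mesenchyme markers 1 rose and 3 fell, and of 4 measured neural markers 3 fell. Of 8 endocrine markers 4 rose and 2 fell, of 4 measured red cell markers 1 rose and 3 fell, of 5 endothelial markers 1 rose and 1 fell, and of 6 leukocyte markers 1 rose. Of 9 measured stomach and intestine markers 3 rose, with mean levels over the list of 4.94 at e16.5 and 4.36 at e12.5. These were Vil1 (villin, 2.41 ± 0.31), the trefoil factor gene Tff2 (2.10 ± 0.60) and the pepsinogen gene Pgc (0.36 ± 0.11), while Tff1 was bright throughout, at 8.15 to 8.34 (-0.19 ± 0.10, adjusted p = 0.207). When e16.5 was left out, no endocrine marker fell and no red cell or leukocyte marker rose, 2 endothelial markers and 1 leukocyte marker fell, and 1 stomach and intestine marker rose. The leukocyte rise was also lost when e13.5 or e15.5 was left out, the endothelial fall when any earlier pool was, and 1 stomach and intestine marker rose when e13.5 was left out. In whole tissue, more cells that express a gene and more of its RNA per cell cannot be told apart. Amounts of cell types were not measured, and the part of any change in their mix in the rise of Cpa1 and Cpb1 was not tested.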

How the data were processed

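All 30 arrays were used. The authors deposited RMA values, per the submitters' processing notes, on a scale taken as log2 from their range. RMA corrects background, equalises arrays by quantiles and summarises probes, which can hold down the brightest signals. The software and its version are not stated there. Per chip, array medians lay within 0.05, and reactions of a pool correlated at 0.9957 or above. Precision is limited by the number of arrays and, for stages, by having 1 pool each.

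GEO's platform annotation, updated by Entrez identifier to GRCm38.p6, gave 29131 probe sets 1 symbol, 724 several and 6846 none. A gene stands by its brightest probe set. With limma 3.58.1 (R 4.3.3), a line over day was fitted to the 5 pool means per chip (change = slope times 4 days, adjusted p under 0.05), and stages were contrasted over 10 arrays (also at least 2-fold), with Benjamini-Hochberg adjustment over the 3 chips. The functions were tested on simulated data. Named are the members, their 5 closest probe sets, and up to 4 genes per list with the largest passing change. Other genes were named after their values were seen. Members and lists were chosen with earlier results of these data known. Alternatives changed scaling, filters, fold minimum and use of reactions, or left out arrays or pools.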

Additional observations from a re-analysis of the deposited data

How the results depend on the processing

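Of 328 alternative values for the 3 probe sets, 311 kept their direction and call (or, for the day of 50% change, moved by less than the spread of the reactions). The rises of Cpa1 (1.87 to 3.32) and Cpb1 162535_at (5.78 to 9.40) in the stage trend passed under all 22 alternatives each, with adjusted p up to 0.0119 and 0.00988. With quantile normalization repeated on the deposited values, Cpa1, the brightest probe set of chip C from e14.5, was set to the same top value of 12.86 at the last 3 stages by construction. Its differences for e15.5 minus e14.5 and e16.5 minus e15.5 then became 0, and its day of 50% change 13.36. That of Cpb1 became 15.14 (both days are an alternative chosen after seeing the data). Without a fold minimum the daily steps 0.68 and 0.65 of Cpa1 and 0.55 and 0.71 of Cpb1 were calls, and with a 4-fold minimum the first step of Cpa1, 1.21, was not.

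Cpb1 169359_at, never called, changed sign with small values: e16.5 minus e12.5 was -0.012 after repeated quantile normalization and -0.045 to 0.1 when an array was left out. Leaving out an array gave -0.011 to 0.134 for e13.5 minus e12.5, -0.083 to 0.034 for e15.5 minus e14.5 and -0.094 to 0.022 for the stage trend, which was 0 without the e13.5 pool or the e15.5 pool. The cause was not tested.

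The background counts moved by over 1.5 times in these settings. The stage trend had 3886 rising and 4825 falling probe sets, against 7580 and 7313 with 10 arrays and a replicate block, which counts reactions as pools. Rising counts were 2143 with bright probe sets only, 1874, 2207 and 1275 without the e12.5, e13.5 or e16.5 pool, and 2278 fell without the e16.5 pool. Bright probe sets are those with a mean above the median of their chip. Counts in that setting are out of fewer tested probe sets, so a lower count there is not a lower share. The e16.5 against e12.5 count, 527 higher and 1111 lower, was 9687 and 8594 with no fold minimum and 146 and 69 at 4-fold. For the 4 daily steps in order, the counts were 29, 39, 108 and 79 higher and 18, 9, 26 and 42 lower. With no fold minimum they were 2053, 494, 1814 and 3050 higher and 2069, 666, 2108 and 4488 lower, which is the background of the added member calls. At 4-fold they were 5, 7, 13 and 32 higher and 0, 0, 0 and 4 lower, and 46 were higher in the last step with bright probe sets only. By the replicate block, the changes of Cpa1 (2.58, adjusted p = 4.44e-06) and Cpb1 (7.44, adjusted p = 3.88e-06) in the stage trend kept their calls. The replicate numbers share only a number: deviations of same-numbered arrays correlated at -0.18 to 0.11 over 30 pairs of stages.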
